A study of Mus musculus with 16 samples.

Results

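The chemokine receptors described here are 9 genes, Ccr1, Ccr2, Ccr7, Cx3cr1, Cxcr4, Cxcr6, Ackr1, Ackr3 and Ccrl2, taken by symbol from a count table of 49568 gene symbols, and all 9 were present in it. They were followed across 16 RNA-seq libraries of mouse flexor tendon, 4 in each of 4 groups, from young adult male mice. The groups were uninjured C57 (C57BL/6J), C57 at 7 days post-injury (dpi), uninjured MRL (MRL/MpJ) and MRL at 7 dpi, where the injury was a partial cut through 50% of the width of a hind paw flexor tendon (deep digital, middle digit). No transgene is named for any group. The study's methods name ketamine and xylazine anesthesia for the surgery and buprenorphine for pain after it. Effects of the cut and of these drugs cannot be told apart here. C57BL/6J is a widely used inbred mouse. MRL/MpJ mice, also inbred, are known for healing several tissues with little scar. Each library came from a single tendon whose sheath and surrounding tissue were left on, so the RNA of every cell type in the piece was mixed.

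Chemokine receptors are cell-surface receptors with 7 membrane-spanning helices that steer cell movement along gradients of small secreted proteins, the chemokines. Classical receptors such as Ccr1, Ccr2, Ccr7, Cx3cr1, Cxcr4 and Cxcr6 signal through inhibitory G proteins and mark blood-derived cells that enter or patrol tissue. Atypical receptors such as Ackr1 and Ackr3, and the related Ccrl2, bind chemokines or chemerin without that G protein signal, and shape how much ligand is available. In tendon, monocytes and macrophages enter after a cut and use several of the classical receptors.

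Total counts ran from 12552424 to 17832908 per library in the 3 other groups and from 18524170 to 23741648 in the injured MRL tendons, so the latter were measured more deeply. Values are CPM, counts scaled by library size with TMM adjustment, and 3 counts, taken as the floor of detection, were worth 0.124 to 0.239 CPM. Levels are compared between genes only as CPM per kb of exon. Tenocyte markers summed to at least 16800 CPM in each library, as the tendon label states. The library labelled C57 uninjured replicate 4 carried 7.15% of its counts on 12 epidermal marker genes, against at most 0.0942% in any other library, and its mean correlation with its own group was 0.759, against 0.864 to 0.924 for the other 15. BI-181, an injured C57 library, carried 7.51% on 12 skeletal muscle marker genes, against at most 0.239% elsewhere. These libraries and MRL uninjured replicate 4, which had the lowest correlation within its own group (0.897), were left out together as an alternative.

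A receptor was called changed when its log2 fold change went beyond 1 in either direction and its adjusted p was below 0.05 in edgeR's quasi-likelihood test, with Benjamini-Hochberg adjustment over all genes tested. The study's methods count separate animals within each group, so the p-values measure the spread between animals.

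After injury, 3 receptors were higher in every injured C57 library than in every uninjured one, and 4 were in MRL. Ccr2 was called in both strains, and Ccr1, Cx3cr1 and Cxcr4 were called in MRL. Ackr3 was the most abundant of the 9 per kb in all 4 groups. Ccr7 and Cxcr6 were near the detection floor in most libraries. Of the 7 receptors tested in C57, 1 was called and it was higher, where 1.07% of all 14424 genes were called (0.908% higher and 0.166% lower). In MRL, 4 of the 7 tested were called, all higher, against 7.41% of 14274 genes (5.25% higher and 2.15% lower). Receptors without overlap between libraries, 3 higher in C57 and 4 higher and 1 lower in MRL, compare with 7.11% higher and 4.86% lower of all genes in C57 and 13.3% higher and 9.45% lower in MRL. The median over the 7 tested receptors was 1.83 in C57 and 2.55 in MRL on the log2 fold scale, beside -0.05 and -0.03 over all genes tested. These 7 passed a filter on low counts, and a gene that is high only after injury passes it through the injured libraries, so the counts and medians describe the tested receptors and not all 9.

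**Figure D1:**
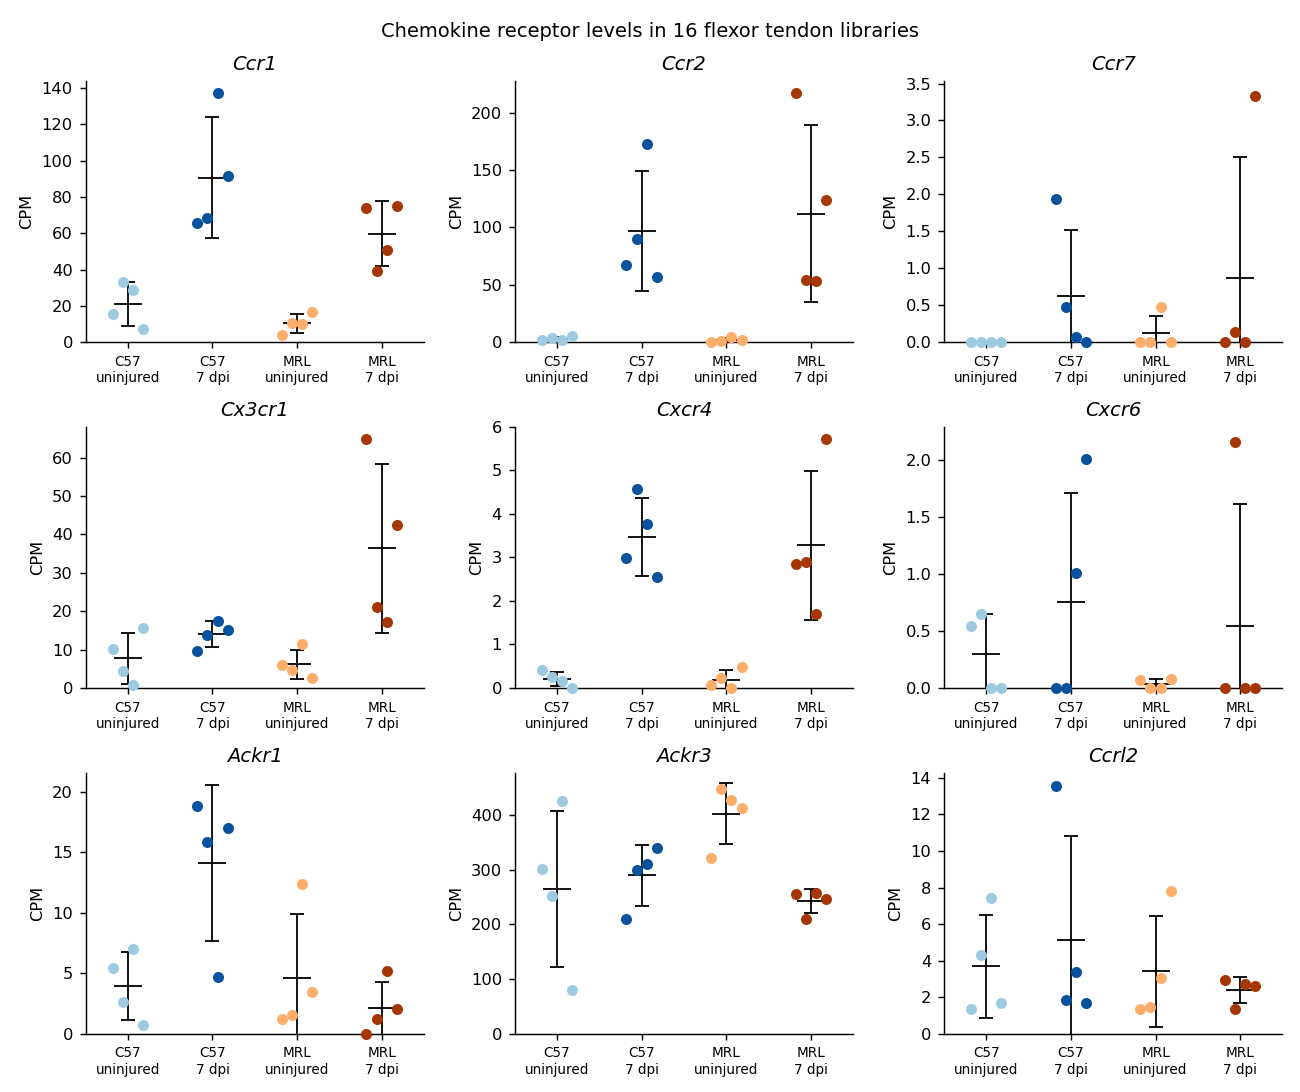
CPM (linear axes from 0) of the 9 receptors in each library by group; points are libraries, and the black marks are the mean ± SD (n = 4), cut off at 0 where they would pass below it. The injured libraries of Ccr1, Ccr2 and Cxcr4 lie above the uninjured ones in both strains, and Cx3cr1 does so in MRL.

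The 250 bases upstream of the RefSeq start (GRCm38.p6) were looked at for 3 motifs on both strands: GAGGAA, a core that factors of the ETS family bind in myeloid genes, TATAAA, the TATA box, and GGGCGG, a GC box. Of 32851 upstream regions, 23.3% held GAGGAA, 12.4% TATAAA and 32.7% GGGCGG. The table held 8 of the 9 receptors, and 3 had an upstream region free of annotated exons, so these are shown: Ccr1 (chr9:123968693-123968942, minus strand) and Cxcr4 (chr1:128592300-128592549, minus strand), whose libraries were higher after injury in both strains, and Ackr3 (chr1:90203730-90203979, plus strand), which was not called. Capitals mark motif matches, and a match on the other strand reads as its reverse complement.
Ccr1: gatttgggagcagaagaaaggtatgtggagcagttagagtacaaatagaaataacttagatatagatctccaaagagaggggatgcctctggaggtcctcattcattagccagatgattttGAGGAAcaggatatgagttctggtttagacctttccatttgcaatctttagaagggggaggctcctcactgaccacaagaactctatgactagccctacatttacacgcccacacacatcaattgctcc
Cxcr4: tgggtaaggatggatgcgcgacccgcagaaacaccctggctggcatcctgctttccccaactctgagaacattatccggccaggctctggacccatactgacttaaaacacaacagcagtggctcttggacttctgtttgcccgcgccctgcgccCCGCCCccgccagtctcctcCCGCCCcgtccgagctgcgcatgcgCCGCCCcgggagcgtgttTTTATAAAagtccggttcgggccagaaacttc
Ackr3: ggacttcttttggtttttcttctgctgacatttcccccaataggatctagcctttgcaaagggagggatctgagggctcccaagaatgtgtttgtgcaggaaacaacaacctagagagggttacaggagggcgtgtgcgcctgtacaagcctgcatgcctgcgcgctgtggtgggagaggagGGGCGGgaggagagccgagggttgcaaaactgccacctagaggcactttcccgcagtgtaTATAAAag
Ccr1 held 1 GAGGAA and neither of the other motifs. Cxcr4 held 3 GC boxes, all read on the other strand, and 2 TATAAA matches, 1 on each strand, which overlap. Ackr3 held 1 GC box and 1 TATAAA. These are matches of letters and not measured binding sites.

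Ccr2 is the receptor for Ccl2, Ccl7 and Ccl12, by which monocytes leave the bone marrow and enter inflamed tissue. In uninjured C57 tendon it had 1.82, 3.45, 1.80 and 5.12 CPM, and in injured C57 tendon it had 67.5, 89.6, 173 and 56.96 CPM. The uninjured MRL libraries had 0, 0.582, 4.06 and 1.43 CPM, and the injured ones had 217, 54.1, 53.5 and 123.4 CPM. The lowest injured library thus lay over 10 times above the highest uninjured one in both strains. The log2 fold change was 4.97 ± 0.52 (SE) in C57 (adjusted p = 0.00816), where Ccr2 ranked 9 of 14424 genes by p-value. In MRL it was 6.19 ± 0.97 (adjusted p = 0.00590). Ccr2 was called in 8 of 8 fits that left out 1 library in C57 (adjusted p up to 0.0493) and in 8 of 8 in MRL (up to 0.0205). In whole tissue, more cells of a type and more RNA of the gene per cell cannot be told apart.

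The Ccr2 gene lies on chromosome 9 from 124101950 to 124113557 on the plus strand (GRCm38, GENCODE M21). Of the 6709 stretches of 100 bases in its exons, 53 occur in other annotated exons too, and reads of 100 nt from these cannot be assigned to 1 gene.

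Ccr1 binds Ccl3, Ccl5, Ccl6 and Ccl9 among others and is carried by monocytes, macrophages and neutrophils. It had 15.5, 33.1, 28.7 and 7.15 CPM in uninjured and 65.5, 68.2, 137 and 91.6 CPM in injured C57 libraries. In MRL it had 3.85, 10.6, 10.1 and 16.6 CPM before and 74.2, 39.0, 50.8 and 75.0 CPM after injury. Every injured library exceeded every uninjured library of both strains. Its log2 fold change in C57 was 2.10 ± 0.47 (SE, edgeR adjusted p = 0.0703), which was not called, and in MRL it was 2.55 ± 0.41 (adjusted p = 0.00466), which was called. The MRL call held in 8 of 8 fits with 1 library left out. Without C57 uninjured replicate 4, the C57 difference was 1.81 and passed (adjusted p = 0.0185).

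Cxcr4, the receptor for Cxcl12, holds blood progenitors in the marrow and guides many leukocytes and vessel-forming cells. The counts of uninjured libraries were 0 to 6 in both strains, and those of injured libraries were 37 to 103. In CPM, Cxcr4 had 0.405, 0.260, 0.156 and 0 before and 2.99, 4.57, 3.78 and 2.55 after injury in C57. In MRL it had 0.0663, 0.218, 0 and 0.478 before and 2.84, 2.89, 1.69 and 5.71 after. The groups did not overlap in either strain. The log2 fold change was 4.02 ± 0.94 (SE, edgeR adjusted p = 0.0823) in C57 and 4.11 ± 1.05 (adjusted p = 0.0324) in MRL. The MRL call was kept in 2 of 8 fits with 1 library left out (adjusted p from 0.0318 to 0.0902), and of the 8 such fits in C57 only that without C57 uninjured replicate 4 called it (adjusted p = 0.0183). With uninjured counts this low, the size of the fold is poorly fixed.

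The number of receptors called in C57 depended on 1 library and on the fit. Without C57 uninjured replicate 4, Ccr1, Ccr2 and Cxcr4 were called, where 5.01% of all genes were, and without the 2 C57 libraries that stood apart the same 3 were, where 5.97% of genes were. Fitting all 16 libraries together also called these 3 (background 2.30%), as did DESeq2 (background 3.37%). In MRL the count fell from 4 to 2 when MRL uninjured replicate 2 was left out (background 5.01%), with Ccr1 and Ccr2 kept.

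Cx3cr1, the receptor for fractalkine (Cx3cl1), marks patrolling monocytes and many resident macrophages. Uninjured C57 libraries had 10.1, 4.36, 0.703 and 15.7 CPM and injured ones 9.72, 13.8, 17.6 and 15.1 CPM, which overlap. In MRL, Cx3cr1 rose from 6.10, 4.66, 11.46 and 2.47 CPM to 64.9, 21.0, 17.3 and 42.6 CPM, without overlap. The log2 fold change was 0.84 ± 0.73 (SE, edgeR adjusted p = 0.628) in C57 and 2.58 ± 0.54 (adjusted p = 0.0150) in MRL. Leaving out MRL uninjured replicate 2 brought the MRL adjusted p to 0.0506, and the other 7 fits kept the call. The exons of Cx3cr1 overlap those of Gm33858 on the opposite strand, and the strand setting of the counting is not given in the sources used here.

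**Figure D2:**
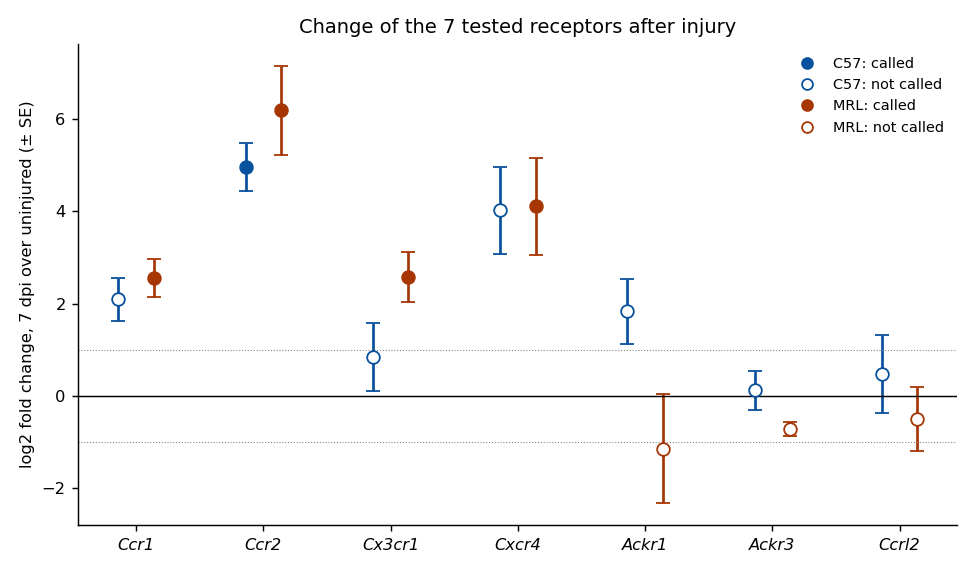
Log2 fold change of 7 dpi over uninjured tendon, with its SE, for the 7 receptors tested; filled points were called, open points were not, and dotted lines mark a log2 fold change of 1 and -1. Ccr2 had the largest change of these 7 in both strains (4.97 and 6.19).

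Ackr3, which binds Cxcl12 and removes it from the surroundings, is made by mesenchymal and vascular cells. Its libraries had 301, 252, 425 and 79.8 CPM in uninjured C57, and the last of these is replicate 4, the library with epidermal transcripts. Injured C57 libraries had 209, 299, 310 and 340 CPM, within the range of the uninjured ones. In MRL it had 321, 448, 428 and 413 CPM before and 256, 210, 257 and 247 CPM after injury, so that every injured library was below every uninjured one. The log2 fold change was 0.12 ± 0.42 (SE, edgeR adjusted p = 0.927) in C57 and -0.72 ± 0.15 (adjusted p = 0.0163) in MRL. The MRL change passed the p-value criterion and not the fold criterion, and with 1 library left out its adjusted p ranged from 0.0181 to 0.0529. Without C57 uninjured replicate 4 the C57 log2 fold change was -0.18.

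Ackr1, the Duffy antigen receptor, binds many inflammatory chemokines on erythroid cells and on the endothelium of venules. It had 5.47, 2.60, 7.03 and 0.721 CPM in uninjured and 18.9, 15.9, 4.66 and 17.1 CPM in injured C57 libraries. Uninjured MRL libraries had 1.19, 1.53, 12.4 and 3.42 CPM, and injured MRL libraries had 0, 1.19, 5.16 and 2.05 CPM. The groups overlapped in both strains, and BI-184 was the injured C57 library inside the uninjured range. Its log2 fold change was 1.83 ± 0.70 (SE, edgeR adjusted p = 0.264) in C57 and -1.143 ± 1.18 (adjusted p = 0.566) in MRL, neither called. The sign in MRL turned without MRL uninjured replicate 3 (0.016). Exons of Ackr1 overlap those of Cadm3 on the same strand, and 189 of its 1391 stretches of 100 bases occur in Cadm3, whose means were 1.33, 5.62, 1.65 and 2.05 CPM in C57 before and after injury and in MRL before and after injury.

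Vessel and erythroid marker levels are given beside Ackr1. The sum of 8 endothelial markers was 20.6 to 101.7 CPM before and 117 to 188 CPM after injury in C57, and 0.265 to 78.5 and 5.19 to 39.6 CPM in MRL. None of these 8 genes was called for injury in either strain. Between injured tendons, Pecam1 and Egfl7 were called lower in MRL, where 1.88% of all genes were. The median log2 difference of the 8 endothelial markers there was -2.85, MRL over C57. Of 4 venule markers, Vcam1 was called in both strains, and the sum was 2.08 to 12.1 and 35.1 to 51.3 CPM in C57 and 3.18 to 19.8 and 15.9 to 46.0 CPM in MRL. In injured MRL tendon most of this sum was Vcam1, with means of 29.4 CPM for Vcam1 and 33.0 CPM for the sum. Mean Vwf in MRL was 3.92 CPM before and 1.80 CPM after injury, and Selp and Sele had means of 1.64 and 0.154 CPM after it. In C57 all 4 markers had log2 fold changes above 0. The sum of 8 erythroid markers was 29.9 to 78.2 and 73.3 to 487 CPM in C57 and 16.3 to 111 and 16.4 to 316 CPM in MRL, with Slc4a1 at 0 in all 8 C57 libraries. Between injured tendons, the erythroid marker Hba-a2 was called lower in MRL, and no venule marker was called. BI-270, the injured library without an Ackr1 count, had the lowest endothelial sum of its group, 5.19 CPM. The part of vessel content in the Ackr1 values was not tested.

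Ccrl2, which binds chemerin and presents it to Cmklr1, had 1.35, 4.29, 7.42 and 1.71 CPM in uninjured C57 and 13.6, 1.86, 3.40 and 1.66 CPM in injured C57 libraries. In MRL it had 1.33, 1.46, 3.05 and 7.80 CPM before and 2.92, 1.33, 2.71 and 2.61 CPM after injury. The groups overlapped, and the highest value came from BI-181, the library with muscle transcripts. Log2 fold changes of 0.47 ± 0.85 (SE, edgeR adjusted p = 0.846) in C57 and -0.50 ± 0.69 (adjusted p = 0.680) in MRL were smaller than their errors, and both turned sign when 1 library was left out.

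Ccr7 guides mature dendritic cells and T cells to lymph nodes, and Cxcr6 is the Cxcl16 receptor of T cell subsets and natural killer T cells. Ccr7 had no count in the uninjured C57 libraries and 31, 8, 1 and 0 counts in the injured ones, and 0, 0, 8 and 0 before and 0, 3, 0 and 60 counts after injury in MRL. Cxcr6 had 8, 10, 0 and 0 counts before and 0, 0, 16 and 29 after injury in C57, and 1, 0, 0 and 1 before and 0, 47, 0 and 0 after injury in MRL. Both receptors were absent from some libraries of every group and were not tested within strains. The sum of 11 T cell markers was at most 11.2 CPM in 15 libraries and 50.0 CPM in C57 uninjured replicate 4, in which Ccr7 and Cxcr6 both had 0 counts. Of those 50.0 CPM, 37.8 came from Trbc2 and 11.7 from Cd5. The defining T cell markers Cd3d, Cd3e and Cd3g were at 0 in all uninjured C57 libraries. With counts this low, the values do not show whether either receptor differed between groups.

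Levels were then set side by side per kb of exon. Ackr3 was first in every group, with means of 79.0, 86.5, 120 and 72.4 CPM per kb in C57 before and after injury and in MRL before and after injury. Ccr1 followed with 7.45, 31.99, 3.63 and 21.1 CPM per kb, and the libraries of Ackr3 and Ccr1 did not overlap in any group. Ccr2 ranked 6 of 9 before injury, with 0.450 CPM per kb in C57 and 0.225 in MRL, and 3 of 9 after it, with 14.3 and 16.6. In injured C57 tendon the order went on with Ackr1 (10.05), Cx3cr1 (3.12), Ccrl2 (1.97) and Cxcr4 (1.92 CPM per kb). In injured MRL tendon it went on with Cx3cr1 (8.08), Cxcr4 (1.82), Ackr1 (1.49) and Ccrl2 (0.921 CPM per kb). Other neighbours in these orders overlapped between libraries, except Cxcr4 over Cxcr6 in injured C57 and Cx3cr1 over Cxcr4 in injured MRL tendon.

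The make-up of the receptor transcripts shifted accordingly. Ackr3 made up 82.8% ± 5.92 (SD, n = 4) of the summed CPM per kb of the 9 receptors in uninjured C57 and 57.4% ± 5.89 in injured C57 tendon. In MRL its share was 92.6% ± 3.605 before and 60.1% ± 9.07 after injury. In C57, Ccr1 went from 8.22% ± 3.16 to 20.9% ± 4.51, and in MRL it went from 2.70% ± 1.22 to 16.9% ± 2.06. Ccr2 went from 0.845% ± 1.04 to 9.29% ± 3.79 in C57, while MRL had 0.158% ± 0.183 before and 12.57% ± 6.33 after injury. The libraries of each of these 3 shares did not overlap between uninjured and injured tendon of a strain. Shares add to 100%, so a fall in one of them does not show a lower level of that gene.

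**Figure D3:**
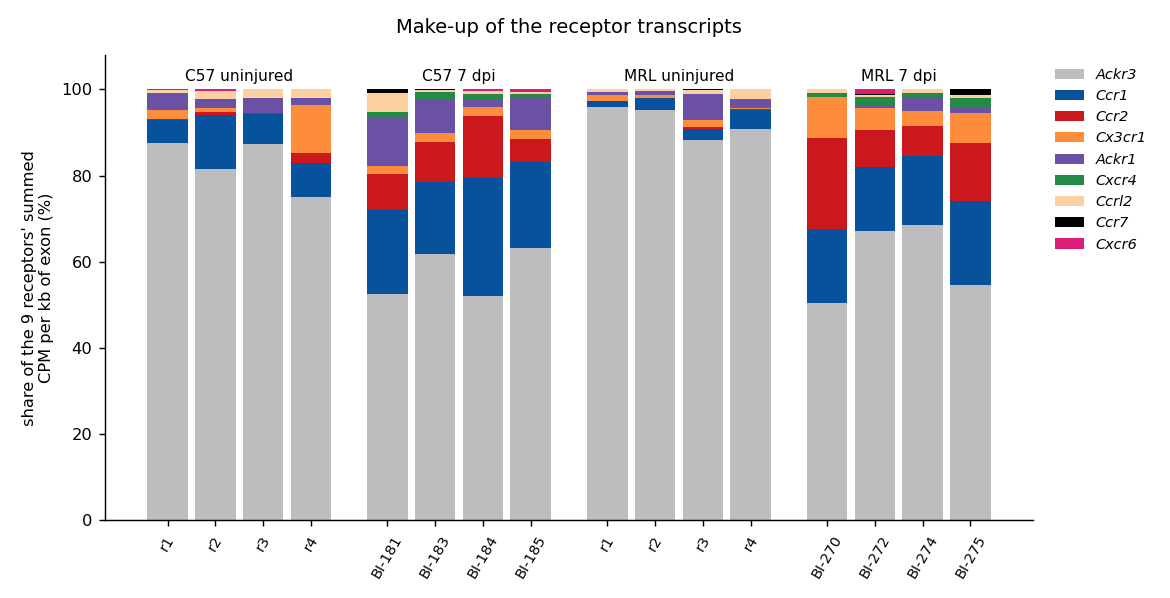
Share (%) of each receptor in the summed CPM per kb of exon of the 9 receptors, 1 bar per library, with uninjured replicates written r1 to r4. Ackr3 (grey) fills 75.0 to 95.9% of the uninjured bars and 50.4 to 68.5% of the injured ones, where Ccr1 (blue) and Ccr2 (red) take more.

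Leukocyte markers also rose after injury, and these values stand beside the receptor changes. Of 6 general leukocyte markers, 5 were called higher in C57 and 6 in MRL, and their sum was 132 to 287 CPM before and 705 to 976 CPM after injury in C57, and 78.3 to 187 CPM before and 473 to 884 CPM after injury in MRL. Of 11 monocyte and macrophage markers tested, 5 were called higher in each strain, with median log2 fold changes of 1.96 in C57 and 0.88 in MRL. Adgre1, Cd68 and Lyz2 were called in both strains, C1qa and Mrc1 in C57 alone, and Fcgr1 and Cd14 in MRL alone. Of all genes tested, 0.908% were called higher in C57 and 5.25% in MRL. Between injured tendons, Csf1r, C1qa, C1qb and C1qc were called lower in MRL, where 1.88% of all genes were. Relative to the leukocyte sum of the same library, Ccr1 stood at 8.73% ± 3.12 (SD, n = 4) before and 10.98% ± 2.51 after injury in C57, and at 6.78% ± 1.63 and 8.87% ± 0.802 in MRL, with overlap in both strains. Ccr2 stood at 0.626 to 3.88% before and 7.43 to 17.7% after injury in C57, and at 0 to 2.85% and 9.19 to 29.3% in MRL, without overlap. Cxcr4 was at 0 to 0.185% and 0.333 to 0.577% in C57, and at 0 to 0.255% and 0.290 to 0.647% in MRL, also without overlap. Cx3cr1 overlapped on this scale in both strains, with 4.602% ± 5.21 and 1.72% ± 0.249 in C57 and 4.98% ± 3.45 and 5.25% ± 2.48 in MRL. These ratios are descriptions with no test, and the part of leukocyte number in the receptor changes was not tested.

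**Figure D4:**
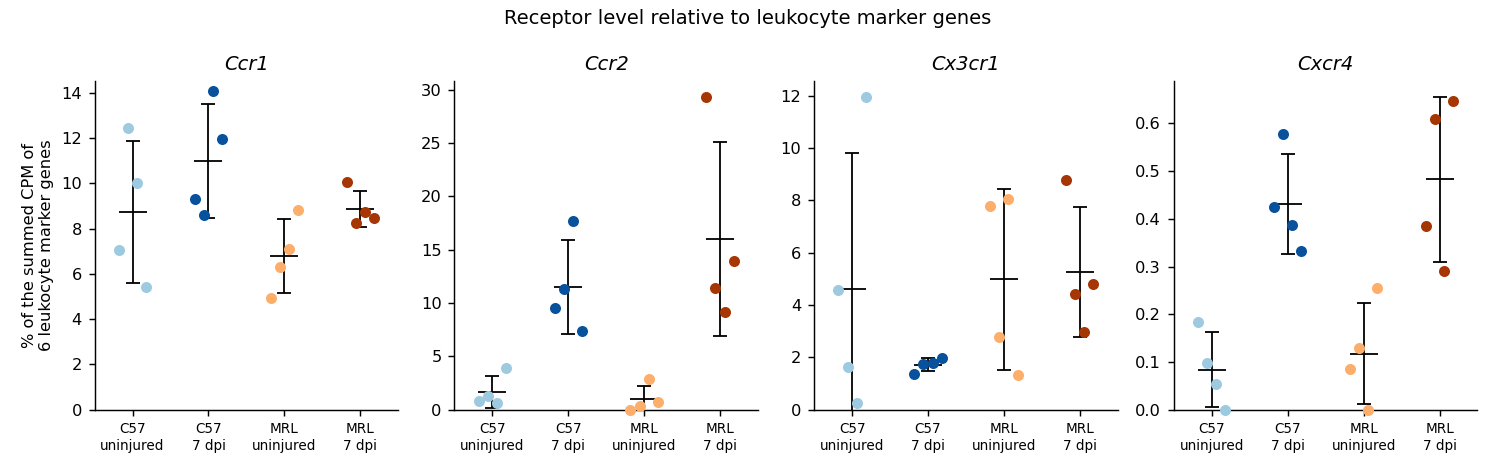
CPM of 4 receptors as a percentage of the summed CPM of 6 leukocyte marker genes (Ptprc, Cd53, Coro1a, Laptm5, Cd52 and Itgb2) in the same library; points are libraries, and black marks are the mean ± SD (n = 4), cut off at 0. Ccr2 and Cxcr4 stay apart between uninjured and injured libraries, and Ccr1 and Cx3cr1 overlap.

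The strains were compared next, first by whether they changed differently after injury. None of the 8 receptors tested for an interaction of strain and injury was called, and the same held for all 15947 genes (0%) in edgeR's quasi-likelihood test. At an unadjusted p under 0.05, 0 of the 8 receptors passed, where 12.2% of genes did, and DESeq2 called 0 of them where it called 0.713% of all genes. The interaction, MRL minus C57 on the log2 scale, was -3.02 ± 1.49 (SE, adjusted p = 0.433) for Ackr1, 1.67 ± 0.94 (adjusted p = 0.498) for Cx3cr1 and -0.90 ± 0.47 (adjusted p = 0.462) for Ackr3. For Ccr2 it was 1.17 ± 1.10 (adjusted p = 0.724), for Ccr1 0.40 ± 0.64 (adjusted p = 0.859), and for Cxcr4 0.02 ± 1.09 (adjusted p = 0.999). A receptor called in MRL alone, such as Cx3cr1, is thus not shown to respond differently in the strains, nor is it shown to respond alike.

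Between uninjured tendons of the strains, 0 of the 6 receptors tested were called by edgeR or by DESeq2. In this comparison edgeR called 0% of all 14055 genes and DESeq2 called 0.392%, and at an unadjusted p under 0.05 edgeR had 0 of the 6 receptors and 7.87% of genes. No receptor separated the 2 groups of libraries, where 2.92% of genes were higher and 2.08% lower in MRL without overlap. Log2 differences, MRL over C57, were -1.04 ± 0.54 (SE, adjusted p = 0.662) for Ccr1, -1.02 ± 1.15 (adjusted p = 0.841) for Ccr2 and 0.60 ± 0.40 (adjusted p = 0.720) for Ackr3. With the libraries that stood apart left out, Ccr1 was called lower in MRL (log2 difference -1.66, adjusted p = 0.0478), and that fit called 3.48% of all genes. The libraries left out held the lowest uninjured C57 value of Ccr1 (7.15 CPM) and the highest uninjured MRL value (16.6 CPM). Of the 8 fits that left out 1 library, 0 called Ccr1 (edgeR adjusted p of 0.301 or more).

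Injured tendons of the strains showed 0 of 7 receptors called in edgeR, against 3.43% of 14626 genes (1.55% higher and 1.88% lower in MRL). At an unadjusted p under 0.05 there were 2 of 7 receptors, Cx3cr1 and Ackr1, and 21.2% of all genes. Cx3cr1 was higher in MRL by 1.33 ± 0.42 (log2, SE, edgeR adjusted p = 0.109) and Ackr1 was lower with -2.80 ± 1.02 (adjusted p = 0.155). Each pair of groups overlapped, Cx3cr1 by BI-184 (17.6 CPM) over BI-274 (17.3 CPM) and Ackr1 by BI-274 (5.16 CPM) over BI-184 (4.66 CPM). No receptor separated the injured libraries of the strains, where 8.92% of genes were higher and 7.41% lower in MRL without overlap. DESeq2 called both, Cx3cr1 with 1.34 (adjusted p = 0.0279) and Ackr1 with -2.80 (adjusted p = 0.0320), and called 5.49% of all genes. Differences for Ccr1 (-0.65 ± 0.30, adjusted p = 0.244), Ccr2 (0.17 ± 0.50, adjusted p = 0.877) and Cxcr4 (-0.14 ± 0.51, adjusted p = 0.907) were not called. The injury, strain and interaction comparisons share libraries with one another, so their results are not independent. MRL reads were mapped to the C57BL/6J reference, and what that does to MRL counts was not tested.

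The ligands of the receptors were followed as a list of 26 genes. In C57, 2 of 17 tested were called higher and none lower, and in MRL 11 of 18 were called higher and none lower, with median log2 fold changes of 2.06 and 2.42, where 1.07% of all genes were called in C57 and 7.41% in MRL. The C57 count was 9 without C57 uninjured replicate 4 and 10 with DESeq2, and 0 of 20 ligands were called for the interaction. Ccl6 and Ccl9, ligands of Ccr1, were called in both strains, Ccl6 with 3.66 ± 0.37 (SE, edgeR adjusted p = 0.00749) in C57 and 3.46 ± 0.42 (adjusted p = 0.00158) in MRL. Ccl9 had 2.92 ± 0.29 (adjusted p = 0.00749) in C57 and 2.76 ± 0.35 (adjusted p = 0.00184) in MRL.

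Of the Ccr2 ligands, Ccl2 had means of 7.40 and 134 CPM before and after injury in C57, and of 4.46 and 287 CPM in MRL, and its libraries did not overlap in either strain. Its log2 fold change was 4.18 ± 1.15 (SE, edgeR adjusted p = 0.149) in C57 and 6.03 ± 0.65 (adjusted p = 0.00119) in MRL. Ccl7 had 4.12 (adjusted p = 0.147) and 5.64 (adjusted p = 0.00284), and Ccl12 had 4.96 (adjusted p = 0.0922) and 6.52 (adjusted p = 0.00184) in C57 and MRL. Ccl8, bound by Ccr2 and other receptors, had 4.39 (adjusted p = 0.0665) and 4.29 (adjusted p = 0.0274). All 4 were called in MRL and not in C57, with libraries that did not overlap in either strain, and none of their interactions of strain and injury was called (adjusted p from 0.631 for Ccl2 to 0.983 for Ccl8).

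Ccl5, a ligand of Ccr1, was called in MRL with 7.43 ± 1.15 (SE, edgeR adjusted p = 0.00422) and had 2.06 ± 1.09 (adjusted p = 0.403) in C57. Injured libraries of the strains did not overlap in Ccl5, with 2.14 to 3.07 CPM in C57 and 4.76 to 44.4 CPM in MRL (log2 difference 2.74 ± 0.61, adjusted p = 0.0355). Ccl17, a Ccr4 ligand, had 4.96 (adjusted p = 0.0556) in C57, and in MRL it had 0 to 2 counts in the uninjured libraries and 14.0 to 220.5 CPM in the injured ones, the highest in BI-275, and was called (adjusted p = 0.00325). Ccl3, also bound by Ccr1, had 1.13 and 2.31 and was not called in either strain.

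Cx3cl1, the ligand of Cx3cr1, was called in MRL with 1.43 ± 0.37 (SE, edgeR adjusted p = 0.0330), although its libraries overlapped, and had -0.38 ± 0.46 (adjusted p = 0.750) in C57. Cxcl16, the ligand of Cxcr6, had 1.26 (adjusted p = 0.191) in C57 and 1.91 (adjusted p = 0.0110, called) in MRL. Cxcl12, bound by Cxcr4 and Ackr3, was abundant, with means of 258, 548, 329 and 318 CPM in C57 before and after injury and in MRL before and after injury. Its log2 fold changes of 1.08 (adjusted p = 0.323) and -0.05 (adjusted p = 0.933) were not called. Mif, a cytokine that can bind Cxcr4, was called in MRL with 1.23 (adjusted p = 0.0338) and had -0.93 (adjusted p = 0.527) in C57. Rarres2, which encodes the Ccrl2 ligand chemerin, had -0.35 and -1.32 and was not called. Ccl19, a Ccr7 ligand, stayed too low to test, and Ccl21a was at 0 in all 16 libraries.

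**Figure D5:**
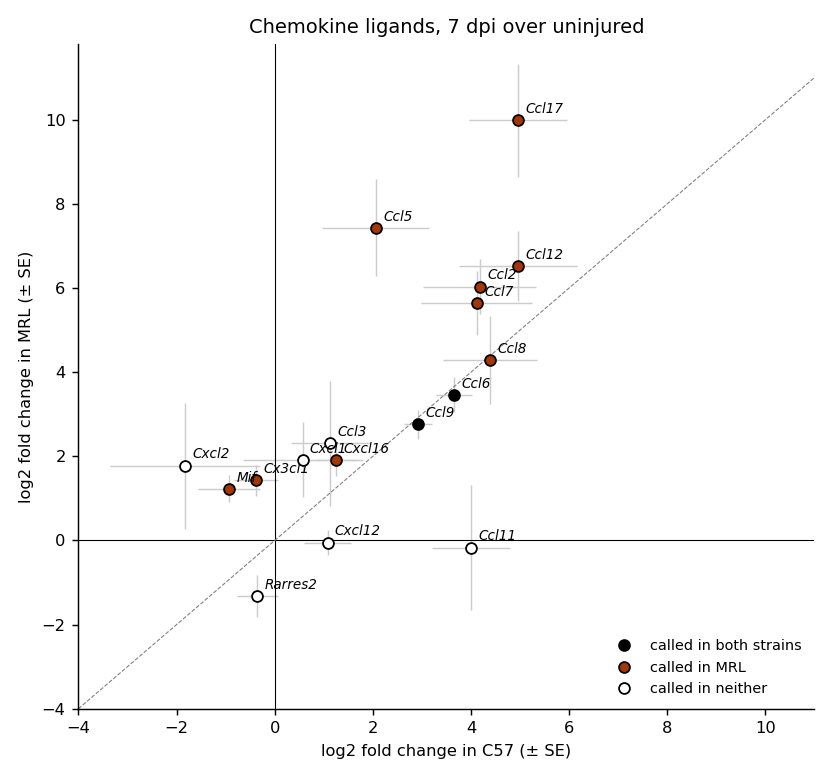
Log2 fold change of 7 dpi over uninjured tendon in C57 (x axis) and MRL (y axis), with SE bars, for the 17 chemokine and chemerin ligand genes tested in both strains; the dashed line marks equal change, and the fill shows in which strain a gene was called. Ccl6 and Ccl9 were called in both strains, and Ccl17 had the largest MRL value.

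Of the 16 other chemokine and chemerin receptors, 0 of 9 tested were called in C57 by edgeR, where 1.07% of all genes were. In the same edgeR test 3 had an unadjusted p under 0.05, beside 2204 of 14424 genes. DESeq2 called 3 in C57, where it called 3.37% of all genes. In MRL edgeR called 2 of 6, 1 higher and 1 lower, where 5.25% of all genes were called higher and 2.15% lower. Cmklr1, the signalling receptor for chemerin, fell by 1.89 ± 0.37 (adjusted p = 0.0112) in MRL and had -1.27 ± 0.31 (adjusted p = 0.0965) in C57, with libraries that did not overlap in either strain. The medians of the tested genes of this list were 0.38 in C57 and -0.70 in MRL.

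Downstream of the receptors, 23 of 25 listed symbols for G protein subunits, receptor kinases, arrestins and effectors were in the table. Of 22 tested in each strain, 1 was called higher in C57 and 5 in MRL, and none lower, with medians of 0.83 and 0.76, where 0.908% and 5.25% of all genes were called higher. Rgs18, a regulator of G protein signalling in blood cells, had 2.73 (adjusted p = 0.00120) in MRL, Rac2, a GTPase of leukocyte movement, had 2.76 (adjusted p = 0.00247), and Fgr, a kinase of the Src family in myeloid cells, had 3.10 (adjusted p = 0.0132). Plcb2, a phospholipase activated by G protein subunits, was at or under the floor in all uninjured libraries and at least 8.09-fold higher in injured MRL tendon. Gnai2, the inhibitory G protein subunit most used in leukocytes, had 0.33 and 0.23 and was not called in either strain.

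By position, 5 of the 9 receptors lie on chromosome 9, 3 on chromosome 1 and 1 on chromosome 11. Cxcr6, Ccr1 and Ccr2 lie near one another on chromosome 9, with 133257 bp between the end of Ccr1 and the start of Ccr2 (GRCm38). Of these 3, Ccr1 and Ccr2 were called in MRL and Cxcr6 was too low to test. Cxcr6 lies within an intron of Fyco1 on the opposite strand.

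The genes most like each receptor were those with the smallest root mean square difference in gene-centred log2 CPM over the 16 libraries, of 15946 other genes. For Ccr1 they were Itgb2 (0.31), itself 1 of the 6 leukocyte markers, C3ar1 (0.43) and Lilrb4a (0.43). For Ccr2 they were Ccl8 (1.18), H2-Ab1 (1.26) and Adam8 (1.33), and for Cxcr4 they were Akr1c13 (0.69), Bcl2a1d (0.70) and Cd84 (0.76). Cx3cr1 was closest to Gm11223 (0.76), Smc2 (0.82) and Ahr (0.85), Ackr1 to Pear1 (0.87), Cyp2f2 (0.95) and Tmem88 (0.97), and Ackr3 to Man1a (0.24), Ick (0.24) and Fam179b (0.26). Ccrl2 was closest to Cnst (0.64), Ubxn2a (0.66) and Zc3h8 (0.67), and Cxcr6 to Hapln4 (0.93), Tg (0.99) and Gm4793 (1.136). The 16 libraries share injury, strain and depth, so a small difference describes a like pattern over these libraries, and a gene that varies more, such as Ccr2, has larger values.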

How the data were processed

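RNA-seq libraries of single mouse flexor tendons were grouped by strain and injury from the deposited labels, with 4 libraries in each of 4 groups. The authors trimmed 100 nt single-end reads with Trimmomatic 0.36, aligned them with STAR 2.5.2b to GRCm38.p5 and counted them per gene with featureCounts (Subread 1.5.0p3, per the labels' processing notes), and deposited raw counts with no normalization. The strand setting and gene annotation are not given in the sources used here. The labels describe TruSeq libraries, whereas the methods describe pre-amplification. Counting error then understates technical error, and floors cover counting error only.

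The 9 receptors, the gene lists and the tests were chosen with earlier results of these data known. Counts were tested with edgeR 4.0.16 in R 4.3.3 (TMM, filterByExpr, robust quasi-likelihood) within each strain, between strains before and after injury, and for the interaction over 16 libraries, with Benjamini-Hochberg adjustment over all genes tested. SE were computed as the log2 fold change over the square root of F. Scripts were tested on simulated data. Alternatives were DESeq2 1.42.0, upper-quartile factors, total counts, no filter, all libraries in one fit, leaving out libraries, and a replicate block. Log2 CPM used a prior count of 2. Exon lengths and positions came from GENCODE M21 and upstream regions from RefSeq. No 2 libraries held identical counts. Text named all 9 receptors, the ligands of the receptors, called genes of each list (at most 8 per list and strain) and the 3 genes most like each receptor. Uninjured replicate numbers come from the labels, and injured libraries are named by their label. Single values of some genes in the lists are not reported here.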

Additional observations from a re-analysis of the deposited data

Results flagged for a closer look

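In 4 of 35 sets of 4 libraries, 1 library of a receptor lay apart from the other 3 by Dixon's criterion. For normally distributed values, chance gives this in about 1 of 20 such sets. That rate does not hold for sets with zeros, because 1 library above 0 beside 3 at 0 always meets the criterion. Ccr7 had 0.478 CPM in MRL uninjured replicate 3, where the other 3 libraries had 0. Ccr7 had 3.33 CPM in BI-275, an injured MRL library, where the others had at most 0.137 CPM. Cxcr6 had 2.15 CPM in BI-272, an injured MRL library, and 0 in the other 3. Ccrl2 had 13.6 CPM in BI-181, the injured C57 library with muscle transcripts, and 1.66 to 3.40 CPM in the other 3. The causes were not tested.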

How the results depend on the processing

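Ccr2 was called in both strains under every alternative run, as was Ccr1 in MRL, and no alternative moved the interaction count of 0. In C57, the receptors called went from 1 to 3 with DESeq2, with all 16 libraries in one fit and without the libraries that stood apart. The other receptors called there went from 0 to 3 with DESeq2 and 2 without the libraries that stood apart, and the ligands from 2 to 10 with DESeq2, 4 with total counts, 5 in the fit of all 16 libraries and 9 without the libraries that stood apart. Of all genes in C57, DESeq2 called 3.37%, total counts 1.18%, the fit of all 16 libraries 2.30% and that without the libraries that stood apart 5.97%. The other receptors called in MRL went from 2 to 1 without a filter on low counts (3.63% of all genes called) and in the fit of all 16 libraries (5.04%). Between uninjured strains 1 receptor was called without the libraries that stood apart, and between injured strains 2 with DESeq2. The causes were not tested.

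With 1 library left out, the receptors called were 1 to 3 in C57 and 2 to 4 in MRL, the other receptors called were 0 to 2 in C57 and 1 to 2 in MRL, and the C57 ligands 2 to 9. These fits called from 0.0667% to 5.01% of all genes in C57 and from 4.64% to 8.58% in MRL. Uncalled values that turned sign without the libraries that stood apart were Ccrl2 in C57 (-0.86), the Ccrl2 interaction (1.17), and Cx3cr1 (0.55) and Ackr1 (-0.0017) between uninjured strains, and the Cxcr4 interaction did with total counts (-0.057). Leaving out 1 library turned the sign of further uncalled log2 values, with these ranges. Injury in C57 gave -0.18 to 0.45 for Ackr3 and -0.64 to 1.05 for Ccrl2, and in MRL -2.09 to 0.016 for Ackr1 and -0.77 to 0.33 for Ccrl2. The interaction gave -0.51 to 0.99 for Cxcr4, -3.84 to 3.45 for Cxcr6 and -1.58 to 0.12 for Ccrl2. Between uninjured strains Cx3cr1 gave -0.80 to 0.29, Ackr1 -0.93 to 0.66 and Ccrl2 -0.92 to 0.47, and between injured strains Ccr2 gave -0.33 to 0.61, Cxcr4 -0.49 to 0.14 and Ccrl2 -1.43 to 0.0043.

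With the replicate number as a block, 0 receptors were called between uninjured strains, as without it, and the log2 difference of Ccr1 was -1.07 (adjusted p = 0.853). Same-numbered libraries did not deviate together (correlations of -0.195, -0.029, -0.101 and -0.241), so the numbers were not taken to pair them. Depth limits Ccr7, Cxcr6 and uninjured Cxcr4, which had few or no counts in most of their libraries. Leaving out the libraries that stood apart removes a single library from the MRL injury and injured strain comparisons, so it is not given separately there.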

Other observations

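Xcr1, the receptor of cross-presenting dendritic cells, had no count in the 8 uninjured libraries and 0.252 to 1.93 CPM in the injured C57 and 0.0889 to 0.595 CPM in the injured MRL libraries. It was too low to test and was chosen after its values were seen. Cxcr2, the main neutrophil receptor, reached 19.7 CPM in C57 uninjured replicate 4, the library with epidermal transcripts. There the 8 neutrophil markers, Cxcr2 among them, also summed to 19.7 CPM, so the others added almost nothing. The same sum was highest in C57 uninjured replicate 3, with 165 CPM, and it was 80.9 CPM in BI-275. Cxcr2 had at most 0.0623 CPM in the injured C57 libraries, and it was at 0 in the uninjured MRL libraries. Ccl11, an eosinophil attractant, had 0.937 to 3.24 CPM before and 7.51 to 62.8 CPM after injury in C57, and 0 to 9.08 and 0 to 4.27 CPM in MRL. Its log2 fold change was 4.01 ± 0.79 (SE, edgeR adjusted p = 0.0528) in C57 and -0.17 ± 1.48 (adjusted p = 0.955) in MRL, with an interaction of -4.21 (adjusted p = 0.384). Cxcr2 and Ccl11 were also chosen after their values were seen.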
